A study of Mus musculus with 4 samples.

Results

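The 36 genes described here make cholesterol, bring it into the cell, move it within the cell or export it, together with the fatty acid enzymes that share their regulators. They were taken by gene symbol from the 23358 gene rows of the deposited tables. All 36 had 1 row in each of the 4 tables, so 0 were without a row, and all 36 passed the filter on low counts. They comprise 7 enzymes of the mevalonate pathway, 11 enzymes from squalene to cholesterol, 5 genes of the SREBP system, 4 genes of uptake and transport, 5 genes of LXR and efflux and 4 fatty acid enzymes.

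Polyadenylated RNA was sequenced from 2 clonally derived mouse lines, each a single clone, of progenitors that can give rise to interstitial cells of Cajal (ICC), which pace the contractions of gut muscle. 2xSCS2F10 came from the gastric muscle layers of C57BL/6J mice and was kept at 37 °C in a neural stem cell medium with 5% chick embryo extract. 2xSCS70 came from the same layers of H-2Kb-tsA58 mice, whose transgene encodes a heat-labile SV40 large T antigen under an interferon-inducible promoter. It was kept at 39.5 °C in that medium with no extract named in its protocol and with interferon gamma left out. With 2 libraries per line, strain, transgene, temperature and medium changed together and cannot be told apart, and these are cell lines, so that the native cells were not measured.

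Cells build cholesterol from acetyl-CoA through mevalonate, isoprenoid units, squalene and a series of sterol intermediates. When membranes of the endoplasmic reticulum are low in cholesterol, SCAP escorts the SREBP factors to the Golgi, where they are cut, and the released part switches on genes of sterol and fatty acid synthesis. INSIG proteins hold SCAP back when sterols are plentiful, and the oxysterol receptors LXR then induce genes of export.

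Libraries held between 20159986 and 24485632 sequenced fragments in genes, where 1 fragment was taken as 2 counts because every deposited count was even, which the sources used here do not explain. CPM, the usual scaling of counts to library size, was computed with TMM factors, which correct for differences in composition between libraries. The SE given is that of the log2 fold change, and means are given ± SD with n = 2 libraries per line. Nothing in the labels says that the libraries of a line came from separate cultures, so p-values measure only the spread between these libraries. Markers of lipid-rich cell types were low. Of the adipocyte markers Cidec had 0 counts in all 4 libraries and the sum of 4 markers was at most 0.871 CPM. Fabp4 was at 0.103 and 0.105 CPM in 2xSCS2F10 and at 0.798 and 0.658 CPM in 2xSCS70. It passed the filter on low counts only through 2xSCS70, the line where it is high, so its call is not used. Of the hepatocyte markers Alb had 0 counts and the sum of 3 was at most 0.157 CPM. Of the macrophage markers Emr1 had 0 counts and the sum of 4 lay between 3.60 and 5.18 CPM, with Cd68 called higher in 2xSCS70 (1.54 and 1.73 against 2.90 and 3.90 CPM). Csf1r went the other way without passing (1.90 and 3.41 against 0.98 and 1.27 CPM), and Ptprc had counts only in 2xSCS2F10 replicate 1 (0.154 CPM). Kit, which defines mature ICC, had 0 counts in 3 libraries and 0.0411 CPM in the other. The sum of 3 ICC markers was 29.8 and 18.7 CPM in the libraries of 2xSCS2F10, against 2.83 and 3.37 CPM in those of 2xSCS70, with 1 of 3 lower. That 1 was Ano1, which made up most of the sum (29.8 and 18.4 against 2.29 and 2.55 CPM). Etv1 went the other way without passing (0.0514 and 0.367 against 0.544 and 0.781 CPM). The sum of 6 smooth muscle markers was 5023 and 8925 CPM against 720 and 674 CPM, with 5 of 6 lower in 2xSCS70. The sum of 3 mesothelial markers was 1700 and 1739 CPM against 26.5 and 22.3 CPM, with 3 of 3 lower. The part of these in the differences below was not tested.

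Between the lines, 17 of the 36 genes passed the test, 7 higher and 10 lower in 2xSCS70. That is 47.2% of the genes, against 40.6% of all 14496 genes tested, so the share lay near that of all genes. Higher calls made up 19.4% of the members against 18.8% of all genes, and lower calls 27.8% against 21.8%. Abcg1 and Mylip, 2 of the 7 higher calls, passed the filter on low counts only through 2xSCS70, and without them 5 of 34 were higher and 10 lower, 44.1% in all. The shares over all genes still include genes that passed the filter through a single line, so they are not matched to this share. With 1 library left out the number of members called ranged from 3 (either library of 2xSCS70 left out) to 29 (2xSCS2F10 replicate 2 left out). The median log2 fold change was -0.39 (the same with the genes of lowest counts set at their bounds), against 0.02 over all genes tested. By group it was -0.58 for the mevalonate enzymes, -0.52 for the sterol enzymes, 0.10 for the SREBP system, -0.85 for uptake and transport, -0.50 for the fatty acid enzymes and 3.89 for LXR and efflux (2.27 with the genes of lowest counts at their bounds). The LXR and efflux median depends on Abcg1 and Mylip. The 3 other genes of that group were at 3.89 (Nr1h3), 0.34 (Abca1) and -0.21 (Nr1h2), and 1 of them was higher. The lines did not overlap for 29 members (80.6%), against 77.4% of all genes tested. The 2 libraries of 2xSCS70 lay above both of 2xSCS2F10 for 8 members and below both for 21, or 22.2% and 58.3%, where all genes tested gave 39.9% and 37.5%. In such bulk RNA, fewer cells of a type and less RNA per cell cannot be told apart.

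**Figure D1:**
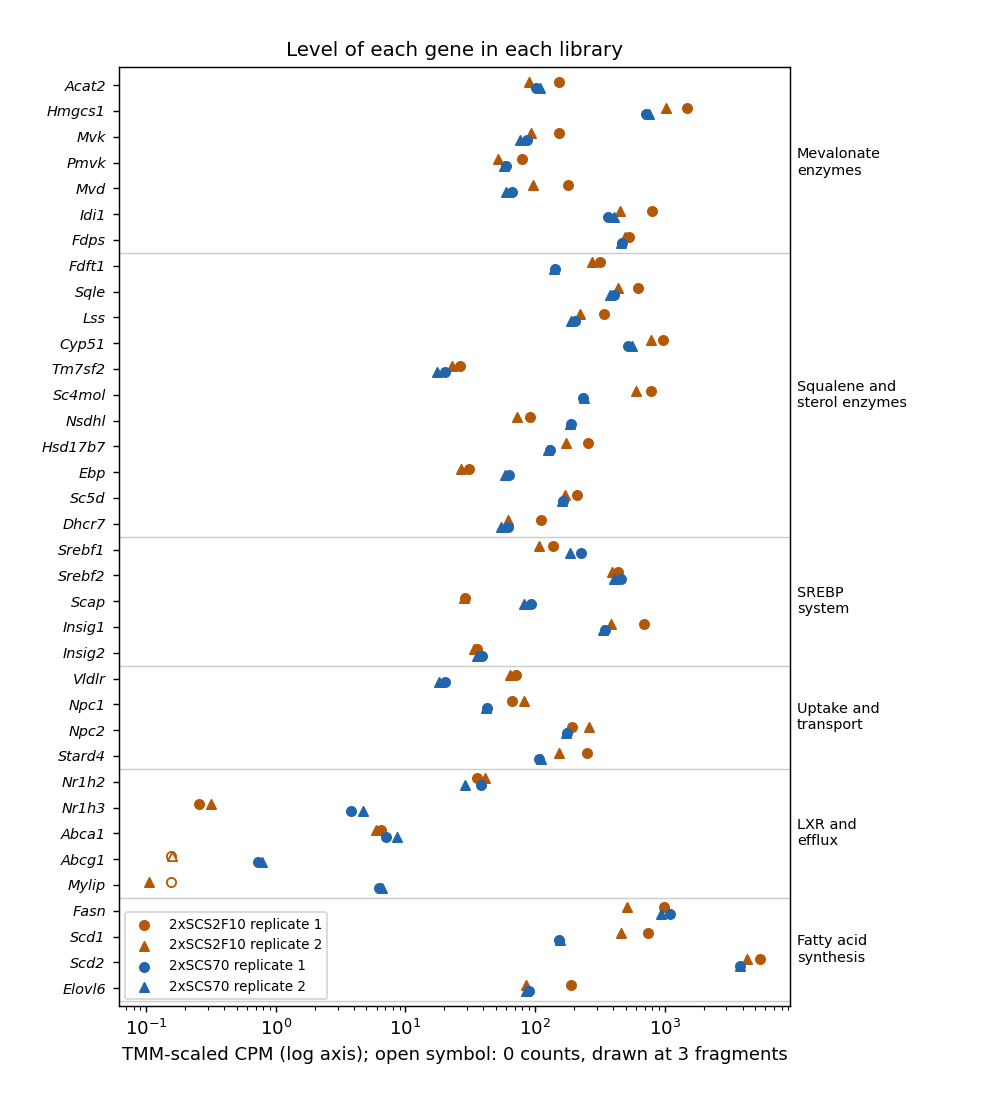
TMM-scaled CPM (log axis) of each of the 36 genes in each of the 4 libraries, circles for replicate 1 and triangles for replicate 2, with 0 counts drawn as open symbols at the level of 3 fragments. The blue symbols of 2xSCS70 nearly coincide for most genes, while the orange ones of 2xSCS2F10 lie apart, as for Elovl6 (188 and 84.6 CPM).

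Compared per length of transcript, on the deposited RPKM scale, the stearoyl-CoA desaturase Scd2 was the most abundant member in both lines, at 642 ± 180 RPKM in 2xSCS2F10 and 581 ± 43.2 RPKM in 2xSCS70. The enzymes Hmgcs1 (276 ± 104 RPKM), Sc4mol (272 ± 82.2 RPKM) and Fdps (250 ± 43.4 RPKM) followed in 2xSCS2F10, their order lying within the spread of the libraries. In 2xSCS70 they were Fdps (265 ± 24.1 RPKM), Hmgcs1 (187 ± 5.36 RPKM) and Sqle (120 ± 14.3 RPKM). The lowest members in both lines belonged to LXR signalling and efflux: Abca1, Nr1h3, Mylip and Abcg1 had means of at most 1.79 RPKM in 2xSCS70 and 0.43 RPKM in 2xSCS2F10.

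Promoters of the enzymes carried a common box. SREBP factors act together with other factors, among them NF-Y, which binds the letters CCAAT. RefSeq promoter windows of build GRCm38.p6 were found for 28 of the 36 members, and the 250 bases before the start were searched on both strands. At least 1 CCAAT stood in 14 of 15 enzymes of the mevalonate and sterol steps (93.3%) and in 8 of 13 other members (61.5%), where 37.5% of 27025 genes had one. The SREBP motif TCACNCCAC was found in 1 member, Hmgcs1, and in 1.22% of all genes. The E-box letters CACGTG, also searched, stood in 6 of the 28 members (21.4%) and in 6.86% of all genes. The 200 bases before the start of 2 enzymes that were lower in 2xSCS70 (Hmgcs1 and Sc4mol, which RefSeq lists as Msmo1) and of 2 that were higher (Nsdhl and Ebp) are shown to set the boxes of both directions side by side. Capitals mark CCAAT, its reverse complement ATTGG and the match to TCACNCCAC.
Hmgcs1 (chr13:119690151-119690350, plus strand): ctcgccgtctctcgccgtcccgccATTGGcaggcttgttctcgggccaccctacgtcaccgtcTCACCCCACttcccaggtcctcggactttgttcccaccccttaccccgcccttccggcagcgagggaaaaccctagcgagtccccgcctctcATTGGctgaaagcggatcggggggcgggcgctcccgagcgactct
Sc4mol (chr8:64733579-64733778, minus strand): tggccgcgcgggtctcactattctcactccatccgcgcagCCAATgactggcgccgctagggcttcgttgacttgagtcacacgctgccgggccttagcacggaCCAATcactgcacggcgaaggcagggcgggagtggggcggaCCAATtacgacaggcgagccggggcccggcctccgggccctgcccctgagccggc
Nsdhl (chrX:72918321-72918520, plus strand): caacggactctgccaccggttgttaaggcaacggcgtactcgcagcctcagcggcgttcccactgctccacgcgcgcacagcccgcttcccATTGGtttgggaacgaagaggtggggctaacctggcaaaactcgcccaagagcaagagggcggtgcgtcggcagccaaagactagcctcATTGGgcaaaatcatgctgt
Ebp (chrX:8193513-8193712, minus strand): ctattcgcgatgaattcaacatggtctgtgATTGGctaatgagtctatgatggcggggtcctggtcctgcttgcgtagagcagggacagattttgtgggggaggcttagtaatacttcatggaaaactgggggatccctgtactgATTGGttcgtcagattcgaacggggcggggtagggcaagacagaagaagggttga
The window of Hmgcs1 held 2 CCAAT boxes and the SREBP match, which began 137 bases before the start, and that of Sc4mol held 3 boxes. Those of Nsdhl and Ebp held 2 each. All 5 enzymes with a window that were lower in 2xSCS70, both that were higher and 7 of the 8 that passed in neither direction had the box. With the box in 14 of 15 enzymes, its presence could not separate the directions. A match describes the letters of the window only.

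The mevalonate pathway leads from acetyl-CoA to the isoprenoid farnesyl diphosphate, and 2 of its 7 enzymes passed the test, both lower in 2xSCS70. Hmgcs1, the synthase of HMG-CoA (chromosome 13, 119690462 to 119708077, mm10), was at 1488 and 1032 CPM in the libraries of 2xSCS2F10 and at 716 and 762 CPM in those of 2xSCS70. The ranges did not overlap, with the lower 2xSCS2F10 library above both others. The fold was 1.70 (log2 -0.77, SE 0.22, edgeR quasi-likelihood adjusted p = 0.0423). Mvd, the decarboxylase that gives isopentenyl diphosphate (chromosome 8, 122433596 to 122443422), was at 178 and 96.0 CPM against 66.6 and 60.2 CPM. Here too the lines were apart, although replicate 1 of 2xSCS2F10 was 1.86-fold above its replicate 2. Mvd was 2.16-fold lower in 2xSCS70 (log2 -1.11, SE 0.31, adjusted p = 0.0407). Neither Hmgcs1 nor Mvd passed once 2xSCS70 replicate 1 (adjusted p = 0.285 and 0.193) or replicate 2 (0.250 and 0.229) was left out. Their calls were also lost under upper quartile scaling (0.0641 and 0.0534), with limma on log2(RPKM + 1) (0.252 and 0.150), at a minimum mean of 5 CPM (0.0540 and 0.0507), and against a null of 1.5-fold (0.259 and 0.136).

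The other 5 mevalonate enzymes had log2 fold changes between -0.68 and -0.14 and adjusted p between 0.111 and 0.597. The kinase Mvk (153 and 93.4 against 87.1 and 76.9 CPM) and the isomerase Idi1 (793 and 456 against 369 and 409 CPM) had no overlap, and neither had the farnesyl diphosphate synthase Fdps (531 and 496 against 471 and 459 CPM). The cytosolic thiolase Acat2 (152 and 90.4 against 103 and 109 CPM) and the kinase Pmvk (79.9 and 51.7 against 59.8 and 58.0 CPM) overlapped, with both 2xSCS70 libraries between those of 2xSCS2F10. Without 2xSCS2F10 replicate 2, the lower library for these genes, the log2 fold changes of Acat2, Mvk, Pmvk and Idi1 were -0.52, -0.90, -0.44 and -1.03. Without its replicate 1 they were 0.21, -0.20, 0.17 and -0.24. Of the exonic bases of Fdps 26.7% overlap Gm43738, of those of Hmgcs1 12.1% overlap Gm48342 on the other strand and of those of Idi1 9.21% overlap Gm48574, so that reads there cannot be assigned to 1 gene.

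The 11 enzymes from squalene onward divided into 4 lower, 2 higher and 5 that did not pass. Sc4mol, the methyl sterol oxidase (chromosome 8, 64718145 to 64733578), differed most among them. It stood at 779 and 603 CPM in 2xSCS2F10 and at 234 and 240 CPM in 2xSCS70. Every library of 2xSCS70 was thus far below those of the other line, and the gene was 2.92-fold lower (log2 -1.54, SE 0.17, adjusted p = 0.00349). Fdft1, squalene synthase (chromosome 14, 63145150 to 63177793), was at 316 and 277 against 143 and 140 CPM. It was 2.10-fold lower (log2 -1.07, SE 0.13, adjusted p = 0.00414), and 18.3% of its annotated exonic bases overlap exons of Ctsb on the other strand, so that with an unstranded kit its counts are less certain. The demethylase Cyp51, at 978 and 783 against 526 and 556 CPM, was 1.63-fold lower (SE 0.16, adjusted p = 0.0253). Its lines did not overlap either. The reductase Hsd17b7, at 254 and 174 against 130 and 126 CPM, was 1.67-fold lower (SE 0.20, adjusted p = 0.0410). With 2xSCS70 replicate 1 left out, Sc4mol, Fdft1, Cyp51 and Hsd17b7 missed the threshold (0.0761, 0.0845, 0.243 and 0.221), as they did with replicate 2 left out (0.0737, 0.0882, 0.212 and 0.241). Cyp51 and Hsd17b7 also missed it with limma on log2(RPKM + 1) (0.204 and 0.242) and against a null of 1.5-fold (0.281 and 0.283), and Hsd17b7 under upper quartile scaling (0.0625) and at a minimum mean of 5 CPM (0.0518).

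Nsdhl and Ebp went the other way. Nsdhl, the dehydrogenase that acts next to Sc4mol in removing methyl groups of the sterol ring (chromosome X, 72918521 to 72958528), was at 91.0 and 72.2 CPM in 2xSCS2F10 and at 188 and 185 CPM in 2xSCS70. It was 2.29-fold higher (log2 1.19, SE 0.15, adjusted p = 0.00510). Ebp, the sterol isomerase (chromosome X, 8185331 to 8193512), was at 30.8 and 26.9 against 62.9 and 58.6 CPM. It was 2.11-fold higher (log2 1.07, SE 0.14, adjusted p = 0.00515), and the lines did not overlap for either gene. Leaving out 2xSCS70 replicate 1 brought Nsdhl and Ebp to adjusted p = 0.0755 and 0.0869, and leaving out replicate 2 to 0.0719 and 0.0751. Both are the only members on chromosome X. Of 458 tested genes of that chromosome 229 were higher and 67 lower in 2xSCS70, with a median log2 fold change of 0.70, and the part of this in the values of Nsdhl and Ebp was not tested.

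The squalene epoxidase Sqle (622 and 433 against 407 and 381 CPM), the lanosterol synthase Lss (342 and 224 against 205 and 191 CPM), the reductase Tm7sf2 (26.4 and 22.9 against 20.1 and 17.5 CPM), the desaturase Sc5d (213 and 171 against 163 and 162 CPM) and Dhcr7 (112 and 62.0 against 61.7 and 54.9 CPM), whose product is cholesterol, did not pass. Their log2 fold changes lay between -0.58 and -0.24 and their adjusted p between 0.103 and 0.239. In each of the 5 both libraries of 2xSCS70 lay below both of 2xSCS2F10, by a small gap for Dhcr7 and Sc5d. Of the exonic bases of Tm7sf2 12.1% overlap Vps51, so its counts are less certain. Without 2xSCS2F10 replicate 2, the lower library for these genes, the log2 fold changes of the 5 were -0.66, -0.79, -0.49, -0.39 and -0.94. Without its replicate 1 they were -0.15, -0.19, -0.30, -0.088 and -0.10. Over the mevalonate and sterol steps together, 16 of 18 enzymes had a fitted change below 0, but with limma on log2(RPKM + 1) the signs of Acat2, Pmvk, Fdps and Sc5d turned (0.085, 0.11, 0.10 and 0.0075), and without 2xSCS2F10 replicate 1 those of Acat2 and Pmvk (0.21 and 0.17). Both libraries of 2xSCS70 lay below both of 2xSCS2F10 for 14 of the 18 (77.8%), against 37.5% of all genes tested.

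**Figure D2:**
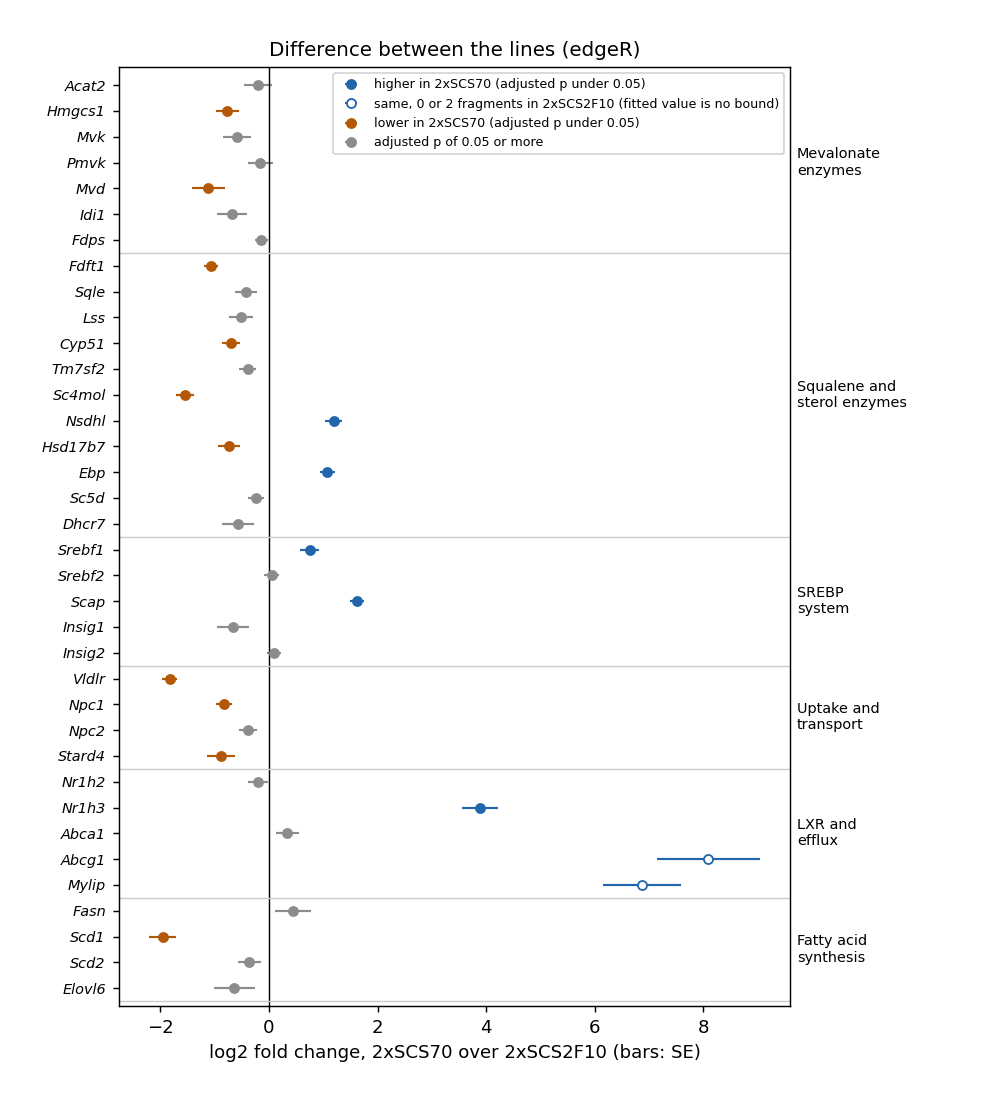
Fitted log2 fold change of 2xSCS70 over 2xSCS2F10 with its SE for each of the 36 genes, blue for genes higher, orange for genes lower and grey for genes that did not pass. The orange points are enzymes, uptake genes and Scd1, and the blue ones Nsdhl, Ebp, Srebf1, Scap, Nr1h3, Abcg1 and Mylip; the open points of Abcg1 and Mylip rest on 0 and 2 fragments in 2xSCS2F10 and are no bounds.

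In the SREBP system, 2 of 5 genes passed and both were higher in 2xSCS70. Scap, the escort of the SREBP factors (chromosome 9, 110333293 to 110384946), was at 28.6 and 28.4 CPM in 2xSCS2F10 and at 93.5 and 82.9 CPM in 2xSCS70. The libraries of 2xSCS2F10 agreed closely, and the gene was 3.09-fold higher (log2 1.63, SE 0.13, adjusted p = 0.00157). Of its annotated exonic bases 13.2% overlap 5830462I19Rik on the other strand, so part of its reads could come from that gene. Srebf1, the factor best known for fatty acid synthesis (chromosome 11, 60199089 to 60220604), was at 139 and 107 against 226 and 186 CPM. It was 1.68-fold higher (log2 0.75, SE 0.18, adjusted p = 0.0292), and the counts do not separate its isoforms. Scap passed with any single library left out (adjusted p at most 0.0423), whereas Srebf1 did not pass when 2xSCS70 replicate 1 (0.218) or replicate 2 (0.125) was missing, or against a null of 1.5-fold (0.240).

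Srebf2, the factor best known for sterol synthesis, was at 440 and 396 against 458 and 407 CPM (log2 0.05, SE 0.14, adjusted p = 0.788), and the sign of its change turned without 2xSCS2F10 replicate 2 (-0.03) and without 2xSCS70 replicate 1 (-0.040). Insig2 was at 35.9 and 33.9 against 39.1 and 35.5 CPM (log2 0.10, SE 0.13, adjusted p = 0.571). Both overlapped between the lines. Insig1, which is itself a target of SREBP, was at 695 and 384 against 348 and 338 CPM (log2 -0.65, SE 0.29, adjusted p = 0.135). Its replicate 1 of 2xSCS2F10 stood alone, and its log2 fold change was -1.02 without replicate 2 of that line and -0.18 without replicate 1.

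Of the 4 genes of uptake and transport 3 were lower in 2xSCS70. Vldlr, a receptor of lipoproteins rich in triglyceride (chromosome 19, 27217020 to 27254231), was at 71.2 and 64.7 CPM in 2xSCS2F10 and at 20.1 and 18.2 CPM in 2xSCS70. Both pairs were tight, and the gene was 3.54-fold lower (log2 -1.82, SE 0.14, adjusted p = 0.00137). Stard4, a carrier of cholesterol through the cytosol, was at 253 and 153 against 108 and 112 CPM, 1.85-fold lower (SE 0.25, adjusted p = 0.0451). Npc1, the membrane protein that lets cholesterol out of lysosomes, was at 66.6 and 82.6 against 42.4 and 41.9 CPM, 1.77-fold lower (SE 0.15, adjusted p = 0.0133). Neither gene overlapped between the lines, and Npc1 differed from the enzymes in that its higher 2xSCS2F10 library was replicate 2. Its lysosomal partner Npc2, at 194 and 261 against 175 and 173 CPM, did not pass (log2 -0.39, SE 0.17, adjusted p = 0.134). Without 2xSCS2F10 replicate 1 its log2 fold change was -0.60, and without replicate 2 it was -0.16. Vldlr passed with any single library left out (adjusted p at most 0.0427). Stard4 and Npc1 did not pass when 2xSCS70 replicate 1 (0.240 and 0.138) or replicate 2 (0.222 and 0.142) was missing, with limma on log2(RPKM + 1) (0.200 and 0.0719) or against a null of 1.5-fold (0.197 and 0.108), nor did Stard4 under upper quartile scaling (0.0647) or at a minimum mean of 5 CPM (0.0569).

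Of the 5 genes of LXR signalling and efflux, all but Nr1h2 were low in both lines, and 3 were higher in 2xSCS70. Mylip and Abcg1, 2 of these 3, passed the filter on low counts only through 2xSCS70, the line where they are high, so that they had to differ, and their p is not quoted. Nr1h3, which encodes LXR alpha (chromosome 2, 91184061 to 91195116), was at 0.257 and 0.315 CPM in 2xSCS2F10 and at 3.81 and 4.73 CPM in 2xSCS70. These 2xSCS2F10 values rest on 11 fragments in both libraries together, and the gene was 14.8-fold higher in 2xSCS70 (log2 3.89, SE 0.34, adjusted p = 0.00194). Counted as fragments, its 5 and 6 in 2xSCS2F10 lie below the filter's minimum of 10. It would then pass the filter only through 2xSCS70, as Mylip and Abcg1 do, and its p carries that limit. Mylip, a ubiquitin ligase that LXR induces and that sends lipoprotein receptors to degradation (chromosome 13, 45389742 to 45411940), had 0 and 2 fragments in 2xSCS2F10 and stood at 6.24 and 6.58 CPM in 2xSCS70. The ratio was 123 (exact 95% interval 33.8 to 1022, counting error only). Vldlr is among the receptors it is known to act on, as protein, which was not measured here. Any link between Mylip and the RNA of Vldlr was not tested. Abcg1, an exporter of cholesterol (chromosome 17, 31057694 to 31117981), had 0 counts in both 2xSCS2F10 libraries and 0.726 and 0.781 CPM in 2xSCS70. Against a floor of 3 fragments per library it was at least 4.84-fold higher, at a level near the bottom of what these libraries resolve. The macrophage marker Cd68 was also higher in 2xSCS70, at the levels given above. The adipocyte marker Fabp4 had more CPM there too, but passed the filter only through that line. The macrophage markers Csf1r and Ptprc were not higher, and the part of these markers in these values was not tested. Nr1h3 passed with any single library left out (adjusted p at most 0.0417).

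The other 2 did not pass. Abca1, which loads cholesterol onto apolipoproteins, was at 6.47 and 5.93 against 7.07 and 8.59 CPM (log2 0.34, SE 0.21, adjusted p = 0.246), without overlap. Nr1h2, which encodes LXR beta, was at 36.0 and 41.0 against 38.0 and 28.6 CPM (log2 -0.21, SE 0.18, adjusted p = 0.405) and overlapped. The log2 fold change of Nr1h2 was -0.31 without 2xSCS2F10 replicate 1 and -0.11 without replicate 2, and its sign turned with limma on log2(RPKM + 1) (0.020).

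Of the fatty acid enzymes only Scd1 passed. Scd1, a stearoyl-CoA desaturase that makes monounsaturated fatty acids (chromosome 19, 44394450 to 44407709), was at 739 and 464 CPM in 2xSCS2F10 and at 153 and 156 CPM in 2xSCS70, 3.89-fold lower (log2 -1.96, SE 0.25, adjusted p = 0.00507). Its neighbour and close relative Scd2 (chromosome 19, 44293676 to 44306862) was at 5439 and 4350 against 3805 and 3795 CPM (log2 -0.37, SE 0.21, adjusted p = 0.218). For both desaturases the 2xSCS70 libraries lay below those of 2xSCS2F10 without overlap, and since the paralogs resemble each other, reads may be shared between them. Fasn, the fatty acid synthase, was at 991 and 513 against 1108 and 941 CPM (log2 0.45, SE 0.33, adjusted p = 0.326). Elovl6, an elongase, was at 188 and 84.6 against 90.2 and 85.3 CPM (log2 -0.64, SE 0.38, adjusted p = 0.230). For both genes the lines overlapped, and the 2xSCS2F10 libraries lay further apart than the line means. With the libraries of 2xSCS2F10 left out in turn, Fasn was at log2 0.99 without replicate 1 and at 0.046 without replicate 2. In the same order Scd2 was at -0.21 and -0.52, and Elovl6 at 0.041 and -1.10, so that the sign of Elovl6 turned. Scd1 missed the threshold when 2xSCS70 replicate 1 (0.0792) or replicate 2 (0.0784) was left out.

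**Figure D3:**
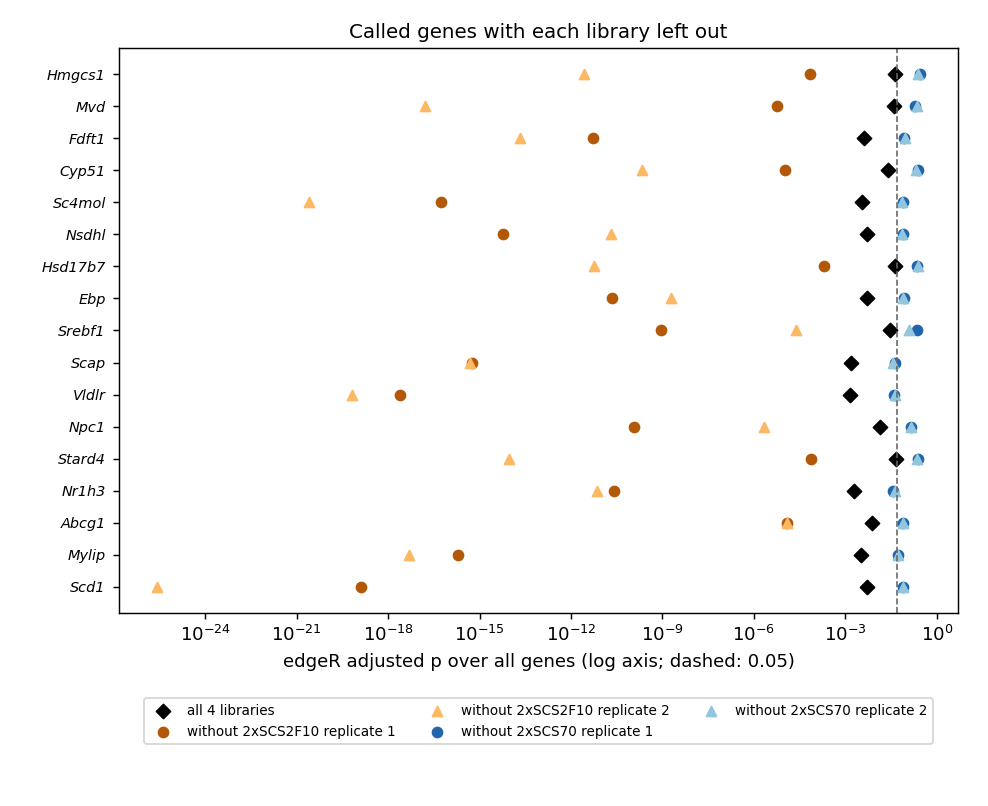
Adjusted p (log axis) of the 17 called genes with all 4 libraries (black diamonds) and with each library left out. Diamonds lie left of the dashed line at 0.05, the orange symbols (a 2xSCS2F10 library left out) far left of it, and the blue ones (a 2xSCS70 library left out) right of it for 14 genes and left of it for Scap, Vldlr and Nr1h3; Abcg1 and Mylip entered the test only through 2xSCS70.

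Which library was left out decided most calls, and some fitted changes moved as well. Without either 2xSCS70 library the log2 fold change of the 15 called genes other than Abcg1 and Mylip moved by at most 0.16 (Nr1h3, with 5 and 6 fragments in 2xSCS2F10). Without either 2xSCS2F10 library it moved by at most 0.50 (Mvd, from -1.11 to -0.61 without replicate 1 and -1.49 without replicate 2). Elovl6, which was not called, went from -0.64 to 0.041 and -1.10. Of the 17 called genes, 14 missed the threshold without 2xSCS70 replicate 1 and 14 without its replicate 2, none was lost without either 2xSCS2F10 library, and the 3 that passed in every case were Scap, Vldlr and Nr1h3. Over all genes tested the calls numbered 850 and 889 in those fits, where the spread came from the 2xSCS2F10 pair alone, and 9567 and 8957 without 2xSCS2F10 replicate 1 or 2, where it came from the tighter 2xSCS70 pair. Of the 19 members that had not passed, 12 passed without 2xSCS2F10 replicate 2, all lower in 2xSCS70 and 9 of them enzymes of the mevalonate and sterol steps, and 4 passed without its replicate 1.

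The libraries of 2xSCS2F10 themselves differed in these genes. With 1 library on each side there is no test, and the intervals given cover counting error only. Replicate 2 was below replicate 1 in 30 of 36 members and above it in 4 (Npc1, Npc2, Nr1h2 and Nr1h3), and Abcg1 and Mylip had too few counts. Over all genes tested 48.6% were below. It was more than 1.5-fold below in 12 members (33.3%) and more than 1.5-fold above in 0, where all genes tested gave 12.5% and 12.5%. The 12 were Acat2, Mvk, Pmvk, Mvd, Idi1, Lss, Dhcr7, Insig1, Stard4, Fasn, Scd1 and Elovl6. At 2-fold, Elovl6 was the only member below, against 6.11% of all genes, and 0 members were above, against 5.86%.

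All 18 enzymes of the mevalonate and sterol steps were lower in replicate 2 of 2xSCS2F10, by 0.10 (Fdps) to 0.89 (Mvd) on the log2 scale, and none of their counting intervals reached 0. For Mvd the difference was -0.89 (95% interval -0.98 to -0.81), for Dhcr7 -0.85 (-0.95 to -0.75), for Idi1 -0.80 (-0.84 to -0.76) and for Hmgcs1 -0.53 (-0.55 to -0.50). The feedback protein Insig1 differed by -0.86 (-0.90 to -0.82), and among fatty acid enzymes Elovl6 differed by -1.15 (-1.24 to -1.07) and Fasn by -0.95 (-0.99 to -0.92). By contrast Scap (-0.01, -0.18 to 0.16) and Insig2 (-0.08, -0.24 to 0.07) had intervals that included 0. The lysosomal Npc1 (0.31, 0.20 to 0.42) and Npc2 (0.43, 0.37 to 0.49) were higher in replicate 2.

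The libraries of 2xSCS70 differed less. None of the 36 members was more than 1.5-fold lower or higher in replicate 2, against 3.14% and 4.67% of all genes tested, so 0 passed 2-fold either (1.19% and 1.95%). In 25 of 36 members replicate 2 was below replicate 1, against 50.4% of all genes, and differences lay between -0.41 (Nr1h2) and 0.31 (Nr1h3). The difference within 2xSCS2F10 was larger than that within 2xSCS70 in 17 of the 18 enzymes, Tm7sf2 being the exception, and in 26 of the 34 members with both values (76.5%), against 71.2% of all genes with both values. That comparison between the lines was not tested. The share of counts of the ribosomal RNA Rn45s was 3.74% in replicate 1 and 8.27% in replicate 2 of 2xSCS2F10, and 2.22% and 5.92% in those of 2xSCS70. The sum of the 6 smooth muscle markers stood at 5023 and 8925 CPM in the 2xSCS2F10 libraries. The part of either in the difference between these libraries was not tested.

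**Figure D4:**
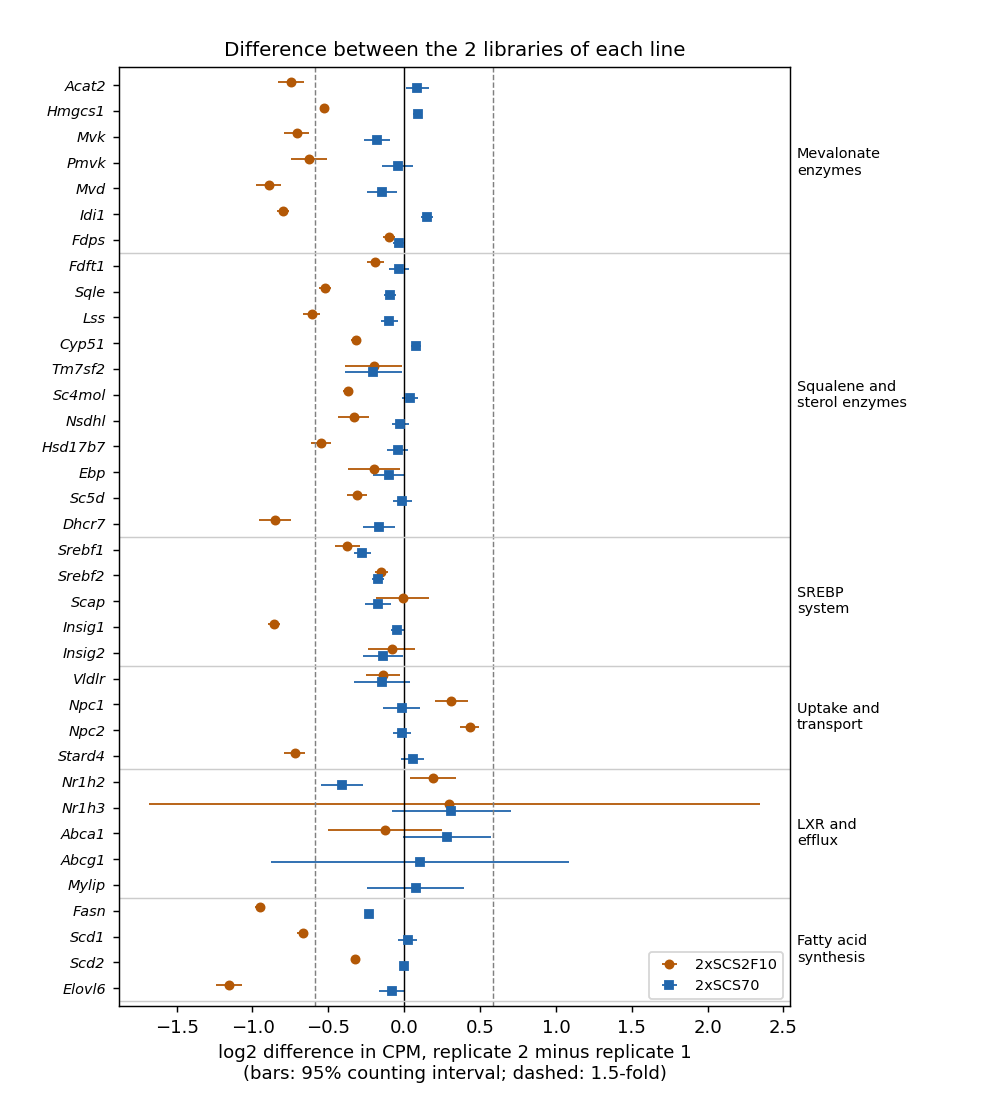
Log2 difference in CPM, replicate 2 minus replicate 1, within 2xSCS2F10 (orange circles) and within 2xSCS70 (blue squares), with 95% counting intervals and dashed lines at a 1.5-fold difference. All enzymes of 2xSCS2F10 lie left of 0 and 12 of its genes lie beyond the left dashed line, while no gene of 2xSCS70 passes either line.

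The size of the line difference depended on which libraries were set against each other. Between libraries of the same replicate number, the median of the 18 enzymes was -0.77 (2xSCS70 minus 2xSCS2F10, log2) for replicate 1 and -0.21 for replicate 2. For Hmgcs1 the values were -1.05 and -0.44, for Idi1 -1.10 and -0.16, and for Dhcr7 -0.86 and -0.17. Acat2 (-0.57 and 0.27) and Pmvk (-0.42 and 0.16) changed sign. In contrast Vldlr (-1.82 and -1.83), Scap (1.71 and 1.55), Nr1h3 (3.89 and 3.91), Ebp (1.03 and 1.12) and Fdft1 (-1.14 and -0.99) gave nearly the same value in both. Of 34 members with counts in every library, 30 had the same sign for both replicate numbers. This share was not computed over all genes, but lines that do not overlap, 77.4% of all genes tested, always give the same sign. Replicate numbers were not taken as pairs.

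Beyond the 36, a list of 51 other genes of the pathway was read from the same fit. Of these 48 were tested, 11 were higher and 16 lower in 2xSCS70, and 21 did not pass. Their median log2 fold change was -0.24. The called share was 56.2%, 22.9% higher and 33.3% lower, against 40.6%, 18.8% and 21.8% of all genes tested. The list was chosen with earlier results of these data known, so this difference is no result about the pathway. Sorl1, called higher (0.103 and 0.0525 CPM in 2xSCS2F10 against 0.544 and 0.534), passed the filter on low counts only through 2xSCS70. Ch25h, called lower (1.03 and 3.88 against 0.0363 and 0.123 CPM), passed it only through 2xSCS2F10. Both had to differ, and the counts here and by step include them. Among the higher ones with at least 10 CPM the smallest adjusted p belonged to Rxra, a partner of the LXR receptors (48.0 ± 3.08 against 19.2 ± 5.07 CPM, 2.49-fold, adjusted p = 0.00980), and to Lipa, the lysosomal lipase that frees cholesterol from its esters (107 ± 10.2 against 64.7 ± 1.04 CPM, 1.65-fold, adjusted p = 0.0116). Among the lower ones it belonged to Cav1, the cholesterol-binding coat protein of caveolae (148 ± 3.58 against 589 ± 15.6 CPM, 3.99-fold, adjusted p = 0.000806), and to Erlin2, an endoplasmic reticulum protein that takes part in sterol control (55.0 ± 0.758 against 119 ± 7.43 CPM, 2.17-fold, adjusted p = 0.00320). Without 2xSCS70 replicate 1 the adjusted p of Rxra, Lipa and Erlin2 was 0.0880, 0.0958 and 0.0728, and without its replicate 2 it was 0.103, 0.145 and 0.0700, while Cav1 passed in both cases (0.0399 and 0.0403). By step, 1 of 7 further genes of synthesis was higher and 1 lower, 1 and 3 of 6 genes of SREBP processing, 4 and 4 of 12 genes of uptake and storage, 3 and 3 of 9 of efflux and oxysterols, and 2 and 5 of 14 of fatty acid synthesis. Calls of both directions occurred in each group.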

How the data were processed

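Libraries of polyadenylated RNA from 2 mouse lines, 2 per line, were prepared using a TruSeq kit that does not mark strand, per the labels' protocols. The submitters' processing notes name TopHat2 2.0.6, Bowtie, HTSeq and the build mm10; the annotation used for counting was not given in the sources used here. Raw counts per gene, every one even, and RPKM values were deposited by the authors in 1 table per library, per the file headers. In the tables of replicate 1, 25 names had become dates, and their rows were matched to the other tables by coordinates. Groups were taken from the labels.

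The counts as deposited were fitted over all genes with edgeR 4.0.16 (R 4.3.3) by the quasi-likelihood test with TMM scaling and filterByExpr, which left 14496 of 23358 genes. Changes are 2xSCS70 minus 2xSCS2F10, p-values were adjusted over all genes tested by the Benjamini-Hochberg method at 0.05, and the SE is the absolute log2 change divided by the square root of F. Within a line, CPM of the 2 libraries were compared at 1.5-fold with exact 95% intervals on fragments, and a floor of 3 fragments stood for 0. Alternatives used DESeq2 1.42.0, limma 3.58.1 (voom, and log2(RPKM + 1) or log2(RPKM + 0.1) values), RLE and upper quartile scaling, other filters, halved counts, a 1.5-fold null, a replicate block and each library left out; where 1 library of a line was left, its spread was assumed equal to that of the other line. Exon overlaps came from GENCODE (GRCm38). All members were named, and of the other pathway genes the 2 with the smallest adjusted p each way at 10 CPM or more. Members and lists were chosen with earlier results of these data known. Plots used Python 3.11.15 and matplotlib 3.10.9.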

Additional observations from a re-analysis of the deposited data

How the results depend on the processing

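Of the 17 calls among the members, all held under RLE scaling, without a filter, on halved counts, with limma-voom and with DESeq2, which called 1 more (Idi1). The number called was 11 on log2(RPKM + 1) and 11 on log2(RPKM + 0.1) values (4 lower in each), 10 with a mean of at least 5 CPM (4 higher and 6 lower, with Nr1h3, Abcg1 and Mylip no longer tested) and 10 against a 1.5-fold change (4 lower). Under upper quartile scaling 6 were lower. Leaving out a library gave 3 to 29 called members, 2 to 8 higher and 1 to 22 lower, and 850 to 9567 called genes of all, and 3094 genes were called against a 1.5-fold change. RPKM values lack the TMM factors: the median of all genes moved from 0.02 to 0.15 and 0.25, and the share of higher calls from 46.3% to 63.8% and 63.2%, while upper quartile scaling moved the median to 0.11. Signs turned, all for genes that had not passed, on log2(RPKM + 1) and log2(RPKM + 0.1) values for Acat2 (0.085 and 0.089), Pmvk (0.11 and 0.11), Fdps (0.10 and 0.10), Sc5d (0.0075 and 0.0080) and Nr1h2 (0.020 and 0.020). With a library left out they turned for Acat2 (-0.52 to 0.21), Pmvk (-0.44 to 0.17), Srebf2 (-0.040 to 0.13) and Elovl6 (-1.10 to 0.041). The cause was not tested. At 2-fold in place of 1.5-fold, 1 member and not 12 was lower in replicate 2 of 2xSCS2F10.

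With the replicate number as a block 16 members and 5222 genes were called (Hmgcs1 lost, adjusted p = 0.0544), and same-numbered libraries deviated together with r = 0.05 across genes, so the numbers were not taken as pairs. With 2 libraries per line, low counts limit Abcg1, Mylip and Nr1h3 most.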
